A study of Mus musculus with 6 samples.

Results

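Lgr5, Ascl2, Axin2, Smoc2, Cd44, Prom1, Myc, Sox9, Ephb2 and Ephb3 are genes of the crypt base and targets of Wnt signalling, taken as a list of 10 by gene symbol. All 10 were found among the 24346 gene entries that each library lists, and all 10 passed the filter on low values described with the methods. The libraries hold RNA of colonic epithelial cells of wild-type mice of the inbred strain C57BL/6J with no treatment, sampled at the proximal, the middle and the distal colon. Each region had 2 libraries, 1 from male and 1 from female mice. All 3 regions share genotype, strain and the absence of treatment, and no transgene or Cre is named. No source used here gives the age or number of the mice behind a library, or says whether mice were shared between regions. P-values therefore reflect only how these libraries vary, and part of that may be technical. Where a pair of values is given for a region, the male library comes first.

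The colonic crypt is renewed from stem cells at its base, and Wnt signalling keeps them dividing. Wnt ligands bind Frizzled and Lrp receptors, the complex that destroys β-catenin is switched off, and β-catenin enters the nucleus, where with TCF factors it turns on target genes. R-spondins, bound by Lgr receptors, raise the number of Wnt receptors on the cell, while targets such as Axin2 and Rnf43 feed back to lower the signal. Cells leaving the base lose this signal as they differentiate towards the surface. In tissue libraries fewer crypt base cells and less RNA per cell cannot be told apart.

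The labelled cell type was checked first. Epcam was at 743 to 872 and Krt8, an epithelial keratin gene, at 3318 to 4008 FPKM (fragments per kilobase of transcript per M fragments, where M is 1e+06, a level scaled to transcript length and library size). The defining crypt base genes were detected at low levels, with Lgr5 at 2.2 to 4.49 and Ascl2 at 3.30 to 5.13 FPKM in the 6 libraries. Depth was estimated at 7.83 to 9.94 M fragments per library from the spacing of the lowest values. At this depth, and over the longest principal transcript, the FPKM of Lgr5 corresponds to about 86 to 189 fragments per library, that of Ascl2 to 42 to 67 and that of Cd44 to 38 to 811. These counts use the full transcript length, while the depth estimate deducted the assumed fragment length, so they lean high, most for short transcripts. Differences between libraries in the lowest of these values therefore carry an appreciable counting error.

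Promoter sequence was examined because Cd44 and Prom1 both fell along the colon and Axin2 is the most widely used reporter of Wnt activity. In the table of RefSeq promoter sequences used here (GRCm38.p6) 6 of the 10 genes were matched, with 7 windows of 250 bases upstream of a start (Ascl2, Axin2, Cd44, Prom1 with a pair of starts, Ephb2 and Ephb3). Annotated exons of the gene itself covered all 250 bases of the outer Prom1 window and 40 bases of the Ephb3 window. Whether the listed starts are used in colon was not tested. Lgr5, Smoc2, Myc and Sox9 were not matched in that table and their promoters were not analysed here. The bases upstream of Cd44 (chr2:102901666-102901915, minus strand), of the inner start of Prom1 (chr5:44094769-44095018, minus strand, within the gene and outside its annotated exons) and of Axin2 (chr11:108920099-108920348, plus strand) are shown 5′ to 3′, ending at the base before the start. Capitals mark the letters CTTTG or CAAAG, the core shared by the TCF words.
Cd44 upstream: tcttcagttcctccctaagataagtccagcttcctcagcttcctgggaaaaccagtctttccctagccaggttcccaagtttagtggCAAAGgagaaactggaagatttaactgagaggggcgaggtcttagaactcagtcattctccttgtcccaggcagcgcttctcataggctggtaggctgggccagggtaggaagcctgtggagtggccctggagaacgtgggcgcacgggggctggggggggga
Prom1 upstream: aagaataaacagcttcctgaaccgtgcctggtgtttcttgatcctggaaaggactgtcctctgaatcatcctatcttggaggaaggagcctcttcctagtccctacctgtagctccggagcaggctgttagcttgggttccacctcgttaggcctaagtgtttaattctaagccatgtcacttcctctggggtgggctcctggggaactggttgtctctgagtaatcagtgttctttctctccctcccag
Axin2 upstream: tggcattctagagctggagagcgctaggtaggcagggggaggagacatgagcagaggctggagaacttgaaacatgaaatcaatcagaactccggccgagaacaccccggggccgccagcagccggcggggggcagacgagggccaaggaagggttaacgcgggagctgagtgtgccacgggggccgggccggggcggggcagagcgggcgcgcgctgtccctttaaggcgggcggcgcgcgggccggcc
The 4 words searched for TCF and LEF factors were, on both strands, CTTTGAA with its variant CTTTGAT, and the word CTTTGTA with its variant CTTTGTT. None of the 7 windows held any of them, and 14.8% of the 32851 windows in the RefSeq table did. So few windows cannot be told apart from that share. The 5-base core, chosen after the words had been searched, overlaps all 4 of them and was found once, at position -163 from the Cd44 start. Of all 32851 windows, 48.6% held it. G and C made up 56.4% of the Cd44 window, 50.8% of the Prom1 window and 69.2% of the Axin2 window.

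Distal against proximal colon compared the ends of the organ. Cd44, the hyaluronan receptor of crypt base cells that lymphocytes also carry, Prom1, a pentaspan membrane glycoprotein of progenitor cells (CD133), and Myc, a growth-promoting transcription factor and direct Wnt target, fell towards the distal end. On mean FPKM Cd44 was 12.7-fold, Prom1 4.18-fold and Myc 1.92-fold higher in proximal colon. The stem cell markers Lgr5 and Ascl2 and the feedback gene Axin2 were not past the threshold. Of the 10 genes, limma called 0 higher and 3 lower at an adjusted p of 0.05. Over all 11815 genes tested, 14.1% were called, 6.47% higher and 7.64% lower. At an unadjusted p under 0.05 the counts were 2 higher and 6 lower, where 13.9% of all genes tested were higher and 15.3% lower. The median difference of the 10 was -0.39 on the log2 scale, beside 0.0067 over all genes tested.

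**Figure D1:**
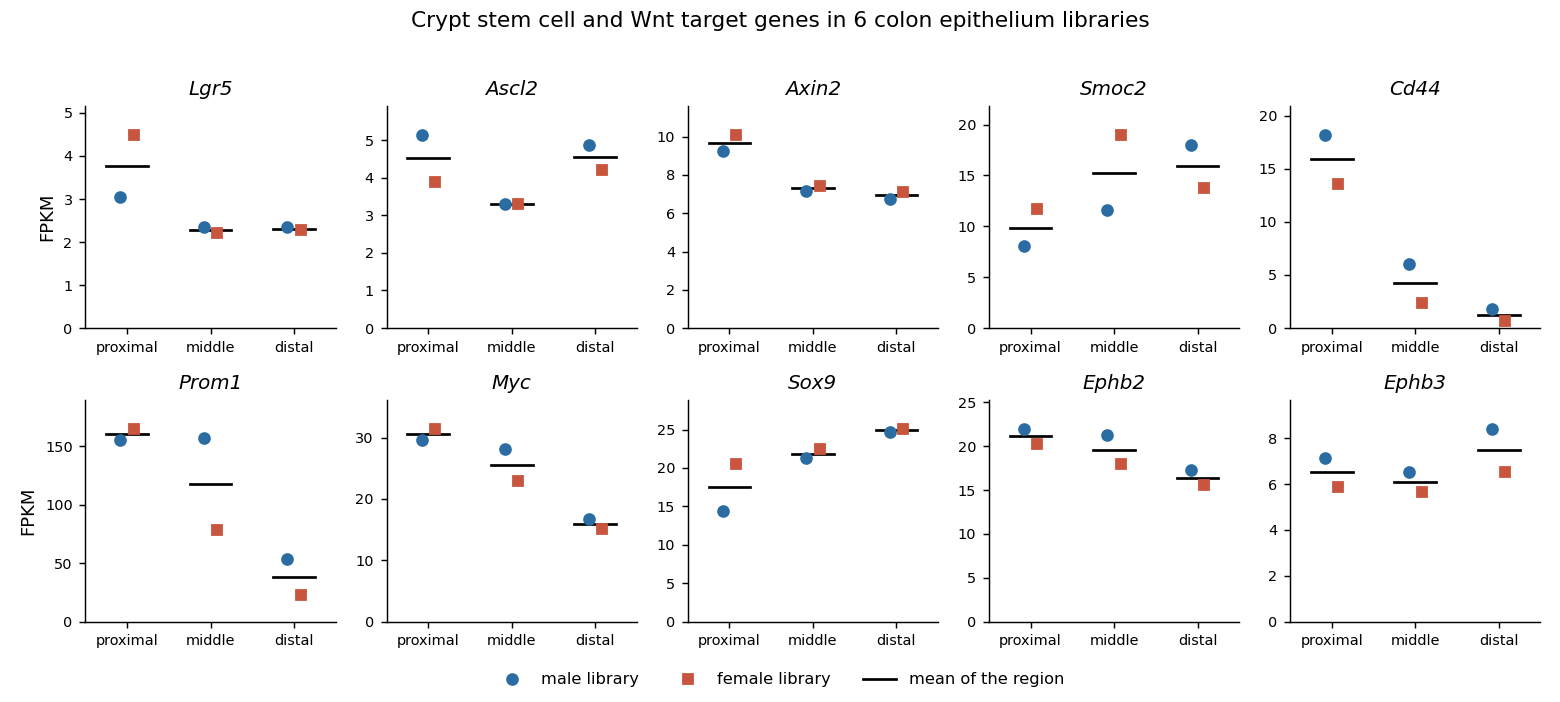
FPKM (vertical axes, each starting at 0) of the 10 genes in the proximal, middle and distal colon, with a circle for the male library, a square for the female library and a line for the mean of the 2. Cd44, Prom1 and Myc are lower in both distal libraries than in both proximal ones, whereas Sox9 and Smoc2 lie above them.

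By mean FPKM the order in proximal colon was Prom1, Myc, Ephb2, Sox9, Cd44, Smoc2, Axin2, Ephb3, Ascl2 and Lgr5. The libraries of Ephb2, Sox9 and Cd44 overlapped there from each to the next, as did those of Smoc2 and Axin2, and of Ascl2 and Lgr5. In distal colon the order was Prom1, Sox9, Ephb2, Smoc2, Myc, Ephb3, Axin2, Ascl2, Lgr5 and Cd44, with overlaps between Prom1 and Sox9, from Ephb2 through Smoc2 to Myc, and between Ephb3 and Axin2. Levels of Ascl2, Lgr5 and Cd44 did not overlap with their neighbours at the distal end.

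Cd44 (chromosome 2, 102811141 to 102901665, minus strand; mm10) was at 18.2 and 13.6 FPKM in proximal, 6.00 and 2.41 in middle, and 1.81 and 0.685 in distal colon. No 2 regions overlapped, and the female library was the lower of the pair in each. The means were 15.9 ± 3.24 FPKM in proximal and 1.25 ± 0.796 in distal colon (mean ± SD, n = 2). The difference was -2.94 on the log2(FPKM + 1) scale (SE 0.19, limma adjusted p = 0.0023), and 13 of 13 other settings kept the call. Cd44 was the lowest of the 10 genes in distal colon and the fifth highest in proximal colon.

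Prom1 (chromosome 5, 43993620 to 44102032, minus strand) was the most abundant of the 10 per unit length in every region by its mean. It was at 155 and 165 FPKM in proximal, 157 and 78.6 in middle, and 53.6 and 22.9 in distal colon. The male middle library was at the proximal level, and the female middle library lay between the ends. The distal difference from proximal colon was -2.16 (SE 0.31, limma adjusted p = 0.012), and the means ± SD went from 160.1 ± 6.76 to 38.3 ± 21.7 FPKM (n = 2). Without the female distal library the call was lost, with the difference at -1.79. Prom1 is also made by cells outside the stem cell compartment. Its share of the summed FPKM of the 10 genes was 57.1% and 57.5% in proximal and 34.7% and 20.2% in distal colon.

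Myc (chromosome 15, 61985391 to 61990374, plus strand) was at 29.6 and 31.5 FPKM in proximal, 28.2 and 22.9 in middle, and 16.7 and 15.1 in distal colon. The regions did not overlap, and the male middle library was closer to the proximal than to the distal libraries. The distal difference was -0.90 (SE 0.12, limma adjusted p = 0.011), and the means ± SD went from 30.5 ± 1.31 to 15.9 ± 1.12 FPKM (n = 2). Leaving out the male or the female distal library ended the call, with the difference at -0.92 and -0.89. Fewer of all genes tested were called in those fits as well.

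The receptor Lgr5 and the transcription factor Ascl2 define the crypt base stem cell, and neither was called. Lgr5 (chromosome 10, 115450311 to 115587780, minus strand) was at 3.05 and 4.49 FPKM in proximal, 2.34 and 2.2 in middle, and 2.34 and 2.28 in distal colon. Both proximal libraries were above the other 4, which lay between 2.2 and 2.34 FPKM. The distal difference was -0.51 (SE 0.19, 95% interval -0.99 to -0.03, limma adjusted p = 0.15). Ascl2 (chromosome 7, 142966829 to 142969264, minus strand) was at 5.13 and 3.89 FPKM in proximal, 3.30 and 3.30 in middle, and 4.87 and 4.21 in distal colon. The ends overlapped and the middle was lowest. The distal difference was 0.01, with a 95% interval from -0.36 to 0.39 (limma adjusted p = 0.96).

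Smoc2, which encodes a secreted calcium-binding matrix protein of the stem cell signature that fibroblasts also make, had both distal libraries above both proximal ones. Smoc2 (chromosome 17, 14279506 to 14404790, plus strand) was at 8.02 and 11.7 FPKM in proximal, 11.6 and 19.0 in middle, and 17.98 and 13.8 in distal colon. The highest library was female middle and the lowest male proximal. The distal difference was 0.64 (SE 0.26, 95% interval 0.0026 to 1.29, limma adjusted p = 0.17). With 1 library left out at a time it ranged from 0.17 to 1.12.

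Axin2, a scaffold of the β-catenin destruction complex that is itself induced by Wnt, and Sox9, a transcription factor of crypt base and progenitor cells, lay on opposite sides. Axin2 (chromosome 11, 108920349 to 108950783, plus strand) was at 9.26 and 10.1 FPKM in proximal, 7.16 and 7.44 in middle, and 6.77 and 7.10 in distal colon. Both proximal libraries were above the other 4. The distal difference was -0.43 (SE 0.11, 95% interval -0.71 to -0.15, limma adjusted p = 0.064). Sox9 (chromosome 11, 112782224 to 112787760, plus strand) was at 14.5 and 20.5 FPKM in proximal, 21.3 and 22.4 in middle, and 24.7 and 25.1 in distal colon. No 2 regions overlapped, and the male proximal library was the lowest. The distal difference was 0.51 (SE 0.14, 95% interval 0.15 to 0.86, limma adjusted p = 0.079). With 1 library left out at a time it ranged from 0.29 to 0.72.

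Ephb2 and Ephb3 are receptor tyrosine kinases induced by Wnt at the crypt base, whose ephrin-B ligands on cells higher in the crypt keep the compartments apart. Ephb2 (chromosome 4, 136647539 to 136835988, minus strand) was at 22.0 and 20.2 FPKM in proximal, 21.2 and 17.9 in middle, and 17.2 and 15.6 in distal colon. The distal libraries were below the proximal and the middle ones. The difference from proximal colon was -0.34 (SE 0.10, 95% interval -0.59 to -0.09, limma adjusted p = 0.084). Ephb3 (chromosome 16, 21204755 to 21223305, plus strand) was at 7.15 and 5.87 FPKM in proximal, 6.50 and 5.67 in middle, and 8.41 and 6.51 in distal colon. Its ends overlapped, and the male library was the higher in each region. The difference was 0.17 (95% interval -0.13 to 0.47, limma adjusted p = 0.42). The Ephb2 level per unit length was 3.07 and 3.44 times that of Ephb3 in proximal, 3.26 and 3.16 times in middle, and 2.05 and 2.39 times in distal colon.

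In all, 2 of the 10 genes (Smoc2 and Sox9) had both distal libraries above both proximal ones, 6 had both below, and Ascl2 and Ephb3 overlapped. Over all genes tested the shares were 30.8% above and 29.5% below.

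**Figure D2:**
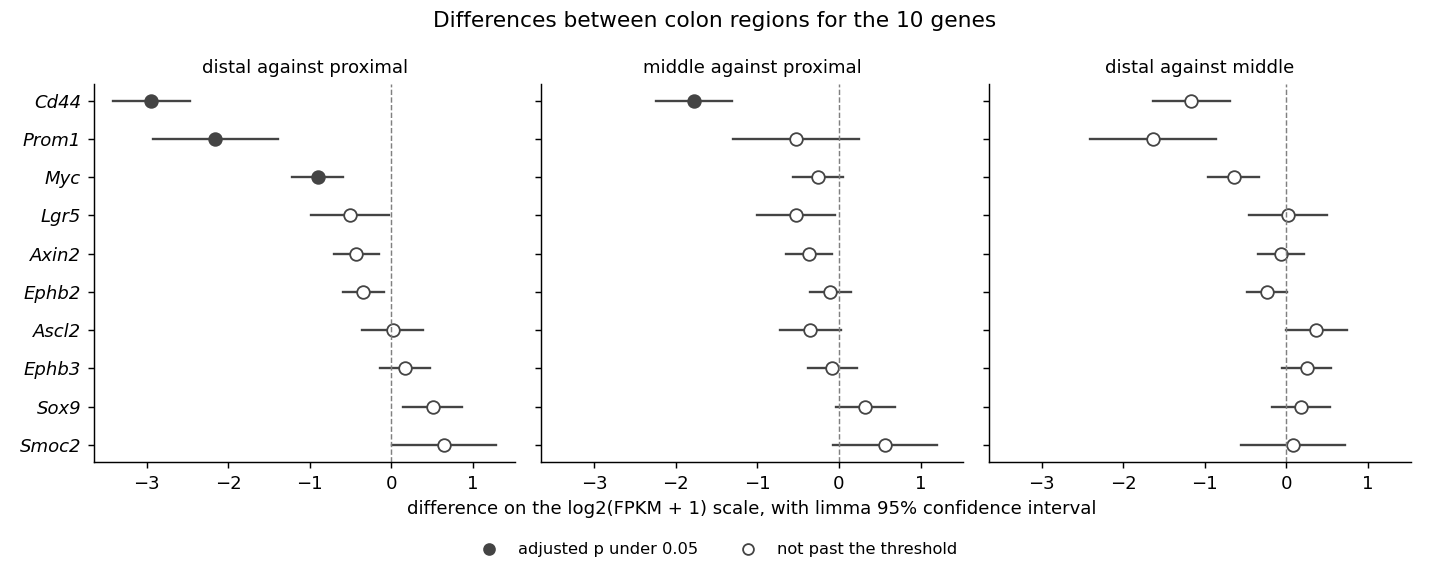
Fitted differences of the 10 genes on the log2(FPKM + 1) scale (horizontal axis) in the 3 comparisons of regions, with limma 95% confidence intervals as lines and filled points for an adjusted p under 0.05. Cd44, Prom1 and Myc are filled for distal against proximal, Cd44 alone for middle against proximal, and no gene for distal against middle.

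Middle against proximal colon uses the same proximal libraries as the comparison of the ends. Cd44 was already lower in the middle colon, by 3.78-fold on mean FPKM, and was the only gene of the 10 past the threshold. Its difference was -1.78 (SE 0.19, limma adjusted p = 0.026), and the means ± SD went from 15.9 ± 3.24 to 4.21 ± 2.54 FPKM (n = 2). The limma counts were 0 higher and 1 lower, where 2.45% of all genes tested were called (1.19% and 1.25%). The unadjusted counts at p under 0.05 were 0 higher and 3 lower, beside 8.77% and 9.55% of all genes tested. The Cd44 call was lost with no filter (adjusted p = 0.0906), with sex left out of the model (0.123) and without the male or the female middle library (0.0648 and 0.189). Lgr5 and Axin2 stood lower in both middle than in both proximal libraries, by 0.53 and 0.36 on the log2 scale, with limma adjusted p = 0.23 and 0.17. Ascl2 differed by -0.35 (adjusted p = 0.31), Prom1 by -0.52 with a 95% interval from -1.29 to 0.25 (adjusted p = 0.46) and Myc by -0.26 (adjusted p = 0.37). For Prom1 the value was -1.11 without the male proximal library (adjusted p = 0.020) and 0.0654 without the female one. In this comparison 1 of the 10 genes had both middle libraries above both proximal ones and 5 had both below, beside 21.6% and 22.2% of all genes tested.

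Distal against middle colon uses the same distal and middle libraries as the comparisons above. The lower values of Prom1, Cd44 and Myc in distal colon were the largest differences among the 10 genes here, with both distal libraries under both middle ones. For Prom1 the difference was -1.63 (SE 0.31, limma adjusted p = 0.12), for Cd44 -1.17 (SE 0.19, adjusted p = 0.092) and for Myc -0.65 (SE 0.12, adjusted p = 0.13). limma called 0 of the 10 genes higher and 0 lower, where it called 0.499% of all genes tested (0.110% and 0.389%). At an unadjusted p under 0.05 the counts were 0 higher and 3 lower, beside 5.61% and 7.08% of all genes tested. Leaving out the male or the female proximal library left these 3 differences as they were. The proximal library that remains is then fitted exactly by its own region term. Both omissions therefore give the same fit of the distal and middle libraries and are not separate support. Lgr5 differed by 0.02 (95% interval -0.46 to 0.49) and Axin2 by -0.07 (95% interval -0.35 to 0.22). Across the 10 genes 3 had both distal libraries above both middle ones and 5 had both below, beside 20.5% and 19.1% of all genes tested.

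The middle libraries of the sexes did not sit at the same place between the ends. For the 1668 genes called between the ends, the middle library lay a median of 52.0% of the way from proximal to distal colon in the male and 67.9% in the female mice on the log2 scale. Cd44 lay at 52.4% and 67.4% of the way, close to these medians. Prom1 lay at -0.93% in the male and 37.9% in the female, and Myc at 8.80% and 43.5%. In both sexes the step of Prom1 and Myc from middle to distal colon was larger than that from proximal to middle. For Prom1 the steps were 0.01 and then -1.53 on the log2 scale in the male and -1.06 and then -1.74 in the female. For Myc they were -0.07 and then -0.72 in the male and -0.44 and then -0.57 in the female. Each step rests on 1 library per region, and neither the steps nor the sexes were tested against each other.

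Female against male libraries were compared across the 3 regions. It is not known whether the libraries of a sex share mice, so sex cannot be told apart here from animal or preparation. Cd44 was lower in the female library of each region, with a difference of -0.72 (SE 0.15, limma adjusted p = 0.37). limma called 0 of the 10 genes higher and 0 lower in female libraries, beside 0.0423% of all genes tested (0.00846% and 0.0339%). The unadjusted counts were 0 higher and 3 lower (Cd44, Prom1 and Ephb3), beside 4.84% and 5.79% of all genes tested. Prom1 differed by -0.70 (limma adjusted p = 0.45) and Ephb3 by -0.25 (adjusted p = 0.47), and Ephb3 was lower in the female library of each region. The proliferation genes were also fitted lower in female libraries (25 of 25, with 0 called and 11 at an unadjusted p under 0.05), and their part in these values was not tested. Prom1 differed by -1.09 without the male as without the female proximal library, since both omissions rest on the same distal and middle libraries.

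The genes with the most similar profile over the 6 libraries were sought for the 3 members that differed most between regions, as the smallest root mean square difference of centred log2(FPKM + 1) among 8656 genes. For Cd44 these were Mapre3, a microtubule end-binding protein (0.22), Aldh1a1, an enzyme of retinoic acid synthesis (0.23), and A4gnt, a glycosyltransferase of gastric-type mucin glycans (0.25). Aldh1a1 was at 636 and 335 FPKM in proximal, 144 and 87.9 in middle, and 60.9 and 44.4 in distal colon. For Prom1 they were Ddah1 (0.19), the neutral amino acid transporter gene Slc1a4 (0.19) and Guca2a (0.25), which encodes guanylin. Guca2a was at 5005 and 6248 FPKM in proximal, 5351 and 3896 in middle and 2612 and 1148 in distal colon. For Myc they were Optn, an autophagy receptor (0.043), 9130008F23Rik (0.060) and Slc22a18 (0.080).

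Other genes of the Wnt pathway were followed by role between the ends of the colon. Ligands were low in these epithelial libraries, and 1 of 23 Wnt and R-spondin genes passed the filter. That gene, Wnt8b, was at 0.0393 and 0.0352 FPKM in proximal, listed at 0 and at 0.574 in middle, and at 1.72 and 2.28 in distal colon (log2 difference 1.53, limma adjusted p = 0.018). In the list 11 genes were at 0 in all libraries, including Rspo2, Rspo3, Rspo4 and Wnt3a, and R-spondins are known to come from the stroma. Wnt8b is a low value, and its call was lost with a pseudocount of 0.1 (adjusted p = 0.057).

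Among receptors, 14 of 18 passed the filter, with 2 called higher and 0 lower in distal colon. Lgr4, the R-spondin receptor found along the whole crypt, rose. The difference between its change and that of Lgr5 was not tested. Lgr4 was at 27.8 and 39.6 FPKM in proximal, 47.3 and 46.9 in middle, and 53.6 and 60.9 in distal colon. Its log2 difference was 0.77 (SE 0.14, limma adjusted p = 0.025). The Wnt5a receptor gene Ror1 rose by 1.08 (adjusted p = 0.016), from 0.635 and 1.31 to 2.74 and 3.53 FPKM. Fzd5, at 21.4 to 43.4 FPKM the most abundant Frizzled gene, was singled out after its values were seen and differed by -0.47 (adjusted p = 0.11).

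Of 13 destruction complex and Dishevelled genes 12 passed the filter, and between the ends limma called 0 of them, and 0 had an unadjusted p under 0.05. Csnk1a1, the priming kinase of β-catenin, was at 93.8 to 111 FPKM and differed by -0.08, and Gsk3a was at 36.6 to 46.9 FPKM and differed by -0.10. Of β-catenin and its nuclear partners, 2 of 11 genes past the filter were called higher and 4 lower. Tcf7l1, a TCF factor that mostly represses targets, was at 4.73 and 2.67 FPKM in proximal, 10.4 and 16.0 in middle, and 29.3 and 21.3 in distal colon. It rose by 2.5 (SE 0.30, limma adjusted p = 0.0076). The Groucho corepressor genes moved in both directions. Tle4 rose by 0.97 (adjusted p = 0.0083), from 14.4 and 13.4 to 26.2 and 30.3 FPKM. Tle3 fell by 0.97 (adjusted p = 0.0072), from 16.9 and 11.2 to 7.85 and 5.50 FPKM, and Tle2 fell by 0.97 (adjusted p = 0.031). The other lower genes, Tle1 and the β-catenin cofactor gene Bcl9l, were named after their values were seen and fell by 0.81 and 0.71 (adjusted p = 0.047 and 0.033).

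**Figure D3:**
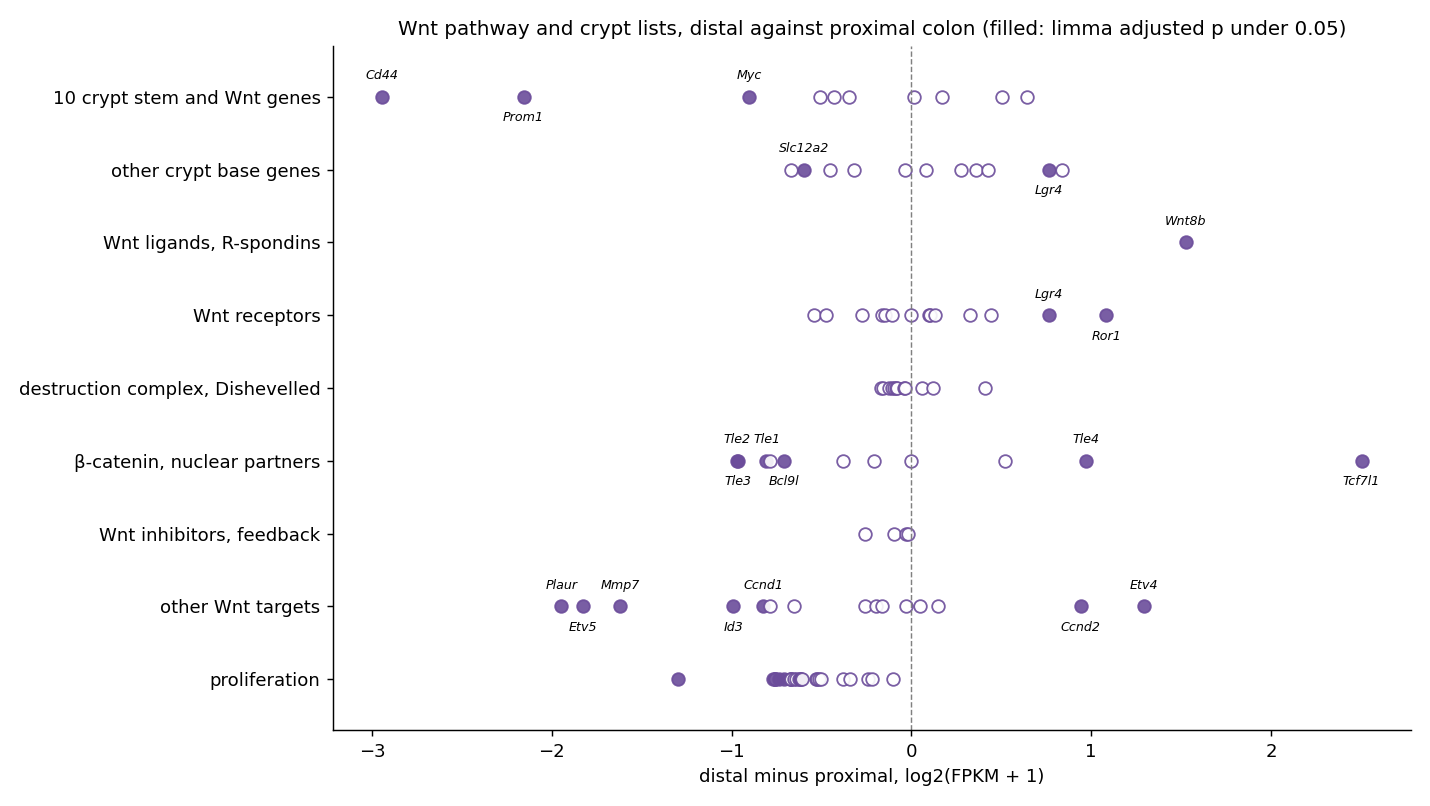
Distal minus proximal difference on the log2(FPKM + 1) scale (horizontal axis) for each gene past the filter in the 10 crypt stem and Wnt genes, other crypt base genes, the Wnt pathway lists by role and the proliferation list. Filled points have a limma adjusted p under 0.05. Targets and nuclear partners have called genes on both sides of 0, and the 25 proliferation genes all lie below 0.

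Of 19 Wnt inhibitors and feedback genes 4 passed the filter, and limma called 0 (0 at an unadjusted p under 0.05). Rnf43, the ubiquitin ligase that removes Wnt receptors, was at 11.6 to 15.9 FPKM and differed by -0.26 (adjusted p = 0.25), and Kremen1, a Dickkopf receptor, differed by -0.10. Of 22 other Wnt target genes 15 passed the filter, with 2 called higher and 5 lower. Plaur, the urokinase receptor gene, fell by 1.95 (SE 0.13, limma adjusted p = 0.0023), from 22.4 and 26.1 to 5.85 and 5.23 FPKM. The ETS factor gene Etv5 fell by 1.83 (adjusted p = 0.010) and the protease gene Mmp7 by 1.62 (adjusted p = 0.021), while Etv4 rose by 1.29 (adjusted p = 0.049). Mmp7 was listed at 0 in both distal libraries. Id3, Ccnd1 and Ccnd2 were named after their values were seen. Id3 differed by -0.99 (limma adjusted p = 0.0081). The cyclin genes Ccnd1 and Ccnd2 moved in opposite directions, by -0.82 and 0.94 on the log2 scale (adjusted p = 0.012 and 0.011). The ratio of Ccnd2 to Ccnd1 FPKM was 0.671 and 0.976 in proximal, 1.62 and 2.54 in middle, and 2.73 and 3.05 in distal colon.

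Ephrin-B ligand genes were not called (0 of 2 past the filter, 0 at an unadjusted p under 0.05). Efnb1 was at 44.6 to 58.0 FPKM and differed by -0.09, and Efnb2 was at 22.8 to 41.9 FPKM and differed by -0.29 (limma adjusted p = 0.51). Efnb3 did not pass the filter. Of the other EphB receptor genes, Ephb6, which encodes a receptor with no kinase activity, was listed at 0 and at 0.157 FPKM in proximal and at 1.82 and 4.89 in distal colon (log2 difference 1.92, adjusted p = 0.011). Ephb4 was at 27.6 to 33.1 FPKM and differed by -0.03, and Ephb1 was at 0 in all libraries.

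Further genes of the crypt base showed no common direction. Of 15, 11 passed the filter, with 1 called higher (Lgr4) and 1 lower. The lower gene was Slc12a2, the basolateral sodium-potassium-chloride cotransporter of crypt cells, which fell by 0.60 (SE 0.09, limma adjusted p = 0.015), from 69.2 and 78.7 FPKM in proximal to 45.9 and 51.0 in distal colon. Olfm4, a stem cell marker of the small intestine that mouse colon is known to lack, was at 0 in all libraries. Among 7 genes of deep crypt secretory cells, which neighbour the stem cells in colon, 1 was called higher and 1 lower. The Notch ligand gene Dll1 rose by 1.09 (adjusted p = 0.031), from 3.06 and 2.81 to 7.88 and 6.90 FPKM, and Kit fell by 0.59 (adjusted p = 0.021), from 16.4 and 15.6 to 10.6 and 9.95 FPKM.

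The proliferation genes were fitted lower in distal colon (25 of 25), as were Myc, Prom1 and Cd44. The part of proliferation in the results for Myc, Prom1 and Cd44 was not tested. All 25 passed the filter, with 0 called higher and 8 lower in distal colon and a median difference of -0.63 on the log2 scale. The unadjusted counts at p under 0.05 were 0 higher and 22 lower, beside 13.9% and 15.3% of all genes tested. Rrm2, a ribonucleotide reductase subunit gene, fell by 1.3 (limma adjusted p = 0.027), and Mcm4, Cdc20 and Ccnb1 fell by 0.77, 0.76 and 0.76 (adjusted p = 0.033, 0.046 and 0.034). Their summed level was 466 and 474 FPKM in proximal, 459 and 312 in middle, and 345 and 262 in distal colon. The summed level of the 10 crypt stem and Wnt genes was 272 and 287, 264 and 182, and 154 and 113 FPKM in the same order, with the male middle library near the proximal ones in both lists. Much of this sum of the 10 genes was Prom1. Its share was 57.1% and 57.5% in proximal, 59.3% and 43.2% in middle, and 34.7% and 20.2% in distal colon. Surface colonocyte genes, of the opposite end of the crypt, lay on both sides of 0 but leaned lower, with a median difference of -1.27. Of 14, limma called 0 higher and 7 lower, beside 6.47% and 7.64% of all genes tested. At an unadjusted p under 0.05, 5 were higher and 9 lower. The 5 were named after their values were seen, and all had both distal libraries above both proximal ones. Their log2 differences were 1.59 for Aqp8, 1.32 for Slc20a1, 1.07 for Car4, 0.80 for Slc26a3 and 0.80 for Ceacam20 (limma adjusted p = 0.072, 0.093, 0.064, 0.053 and 0.10). Of the called genes, Slc51a, Tmigd1, Emp1 and Slc51b fell by 6.07, 4.26, 3.71 and 2.19 (limma adjusted p = 0.0023, 0.0032, 0.0083 and 0.0028).

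**Figure D4:**
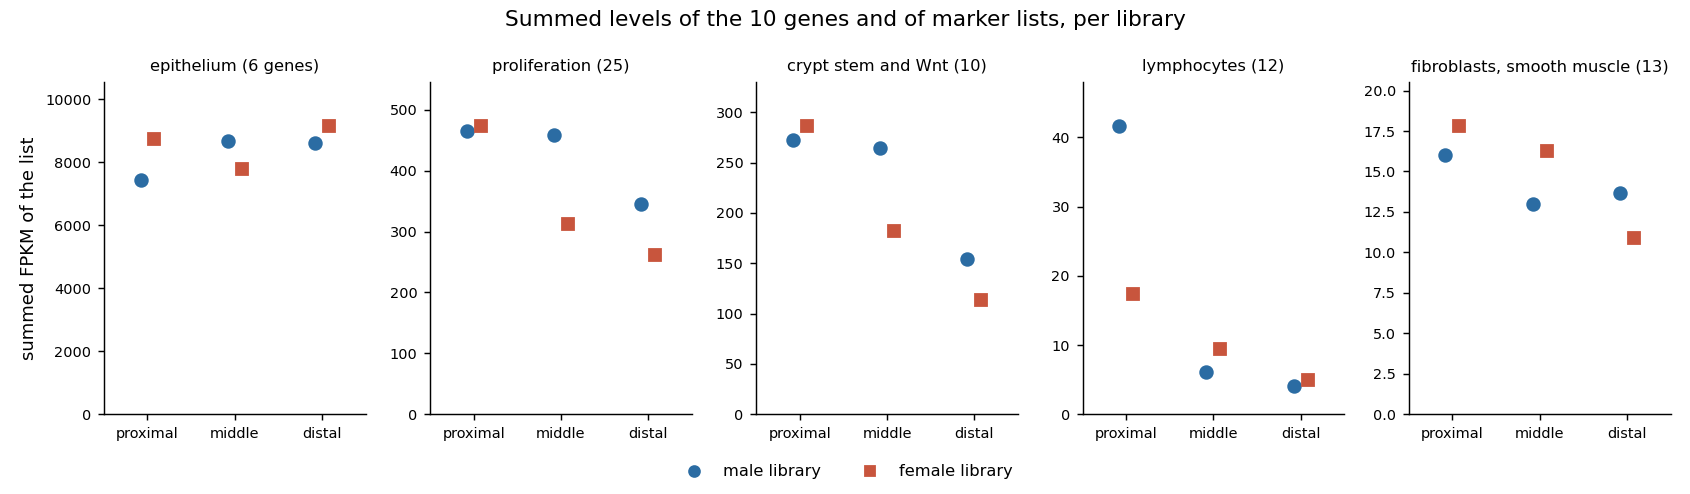
Summed FPKM (vertical axes, each starting at 0) of 5 lists in each library, by region, with circles for male and squares for female libraries. The sum of the 10 crypt stem and Wnt genes, of which Prom1 is 20.2% to 59.3%, is lower in both distal libraries than in the other 4. The proliferation sum is lowest in the female distal library and next lowest in the female middle one. The lymphocyte genes are highest in the male proximal library, and the epithelial genes lie between 7453 and 9168 FPKM.

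Markers of other cell types were set beside these results, since lymphocytes carry Cd44 and fibroblasts make Smoc2. Of 12 lymphocyte genes 7 passed the filter, with 0 called higher and 3 lower in distal colon (Gzma by 2.90, Gzmb by 1.96 and Cd8a by 1.25). Their summed level was 17.4 to 41.7 FPKM in proximal, 6.12 to 9.38 in middle and 4.06 to 5.0 in distal libraries. Ptprc, the pan-leukocyte gene, was at 3.28 and 2.30 FPKM in proximal and at 0.333 and 1.04 in distal colon. These 3 lymphocyte genes and Cd44 were highest in the male proximal library, and their part in the Cd44 result was not tested. Fibroblast and smooth muscle genes summed to 16.0 to 17.8 FPKM in proximal, 12.97 to 16.3 in middle and 10.9 to 13.7 in distal libraries, and 4 of 13 passed the filter, with 0 called higher and 1 lower (Tagln by 0.61). Of that list 9 genes were under 1 FPKM in all libraries, among them Col1a1, Pdgfra and Lum (at most 0.141, 0.0393 and 0.0679 FPKM). The other 4 were present, with Dcn at 0.379 to 2.48, Pdgfrb at 2.90 to 4.39, Vim at 1.67 to 5.12 and Tagln at 4.15 to 7.19 FPKM. The part of fibroblasts in the Smoc2 values was not tested. Endothelial genes summed to 1.96 to 3.76 FPKM and squamous ones to 0.688 to 1.75 FPKM. Endothelial and squamous genes past the filter were Pecam1 and Krt14, neither of them called (0.52 and 0.66, limma adjusted p = 0.21 and 0.27). Macrophage and dendritic cell genes summed to 21.6 to 22.7 FPKM in proximal and 40.8 to 42.4 in distal libraries. Most of that sum was Cd14, at 12.3 to 37.9 FPKM, which rose by 1.19, while Adgre1 was at most at 0.0998 FPKM. Cd68, the other gene past the filter, was at 0.733 to 2.27 FPKM and differed by 0.36 (limma adjusted p = 0.46). C1qa, which did not pass the filter, was at 6.52 FPKM in the male proximal library and at 0.143 to 0.805 in the others.

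Of the 28 genes named from these lists as called between the ends, 5 (Plaur, Slc51a, Slc51b, Tmigd1 and Gzma) were called under every alternative in which they were tested. The other 23 each lost the call when at least 1 of the distal libraries was left out, and some under other settings. Calls over all genes tested also dropped without a distal library, so such a loss is not particular to these genes. Etv4 and Tagln kept it in 4 of 13 settings.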

How the data were processed

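Epithelial RNA libraries from 3 colon regions were compared, 2 per region. The authors deposited 1 FPKM value per gene symbol and library. Per the submitters' processing notes the software was Cuffdiff 2.2.1, TopHat2 2.1.1, SAMtools 0.1.18 and Bowtie2 2.2.8, in roles not stated, on mm10. Per the labels' protocols libraries were made with a TruSeq stranded mRNA kit. No source used here gives the annotation or counting settings, and Cuffdiff's gene value can shift where isoforms are uncertain, as in Cd44 and Prom1 with 9 and 19 annotated transcripts.

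Count models were not used on FPKM. Values were analysed as log2(FPKM + 1), which understates changes of low genes. Genes with at least 1 FPKM in at least 2 libraries passed the filter (11815 of 24346). Region and sex were fitted over the 6 libraries in limma 3.58.1 (R 4.3.3) with a variance trend (2 residual and 3.49 prior degrees of freedom), two-sided, with Benjamini-Hochberg adjustment over all kept genes at 0.05. The libraries of a sex are matched across regions by that term. Depth was estimated from the steps of values under 0.2 FPKM in genes with 1 transcript over 1500 bases, assuming 200-base fragments, and 74.5% to 79.6% of those values came within 0.1 of a whole fragment. On simulated data for distal against proximal colon (11815 genes) the fit recovered 89.5% of genes given a log2 change of 1 and 99.1% of genes given a change of 2. Unchanged genes made up 8.31% of calls. The 200 changed genes all had a mean log2(FPKM + 1) above 1, so recovery of lower genes was not simulated. Noise was normal with the fitted spread, and no sex effect was added.

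The members, lists, tests and alternatives were chosen with earlier results of these data known. All members were named. From each other list up to 4 called genes with the largest difference between the ends were named, or, where none was called, the 2 most abundant. Genes whose profile is most alike needed a mean of at least 5 FPKM. Coordinates are from GENCODE M21 (mm10), and upstream sequences from RefSeq (GRCm38.p6). The fit was repeated with sex left out, with no variance trend, with median-ratio scaling or quantile normalization, with a 5 FPKM minimum or no filter, with a pseudocount of 0.1, and without each library in turn (its partner was then taken to vary as the other libraries do). Python 3.11.15 and matplotlib 3.10.9 drew the figures.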

Additional observations from a re-analysis of the deposited data

Results flagged for a closer look

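For 4 results the male and the female library moved in opposite directions between regions. Each direction rests on 1 library per sex and region, and the difference between the sexes was not tested, since the design leaves no residual degrees of freedom for it. Prom1 between middle and proximal colon changed by 0.01 on the log2 scale in the male and by -1.06 in the female mice, a difference between the sexes of -1.07. Smoc2 between distal and middle colon changed by 0.59 in the male and -0.43 in the female, a difference of -1.03. Ascl2 between distal and proximal colon changed by -0.06 and 0.09 (difference 0.16). Lgr5 between distal and middle colon changed by -0.0012 and 0.03 (difference 0.0356), at a level of 2.2 to 2.34 FPKM where the libraries hardly differ.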

How the results depend on the processing

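With 2 libraries per region, leaving 1 out changed most counts. For distal against proximal colon, 765 genes were called higher and 903 lower, and 130 to 771 higher and 210 to 870 lower without 1 library. Of the 10 crypt stem and Wnt genes 0 to 1 were then called higher and 1 to 3 lower. For middle against proximal colon the counts went from 141 and 148 to 0 to 436 and 0 to 370, with 0 to 2 of the 10 genes lower. For distal against middle colon they went from 13 and 46 to 0 to 145 and 0 to 263, with 0 to 3 of the 10 lower. For female against male they went from 1 and 4 to 1 to 3 and 1 to 22, with 0 to 1 of the 10 lower. With no filter, 508 genes were called higher in distal than in proximal colon, 1 higher and 3 lower in middle than in proximal colon (0 of the 10 genes), and 1 higher and 1 lower between distal and middle colon. With no variance trend, 76 genes were higher in middle than in proximal colon and 19 lower in distal than in middle colon. With sex, the pairing of the libraries, left out of the model (no replicate block), the counts were 8 higher and 16 lower for middle against proximal colon (0 of the 10 genes) and 6 higher and 11 lower for distal against middle colon. For distal against proximal colon it changed no call among the 10 genes. A pseudocount of 0.1 gave 2 genes higher in female libraries. The cause was not tested. Differences that changed sign without 1 library, none of them called in the full data, ranged as follows: Ascl2 (-0.11 to 0.14), Csnk1a1 (-0.16 to 0.0063), Efnb1 (-0.18 to 0.0029), Efnb2 (-0.77 to 0.18), Ephb4 (-0.16 to 0.0934) and Krt8 (-0.0421 to 0.27) between distal and proximal colon, Prom1 (-1.11 to 0.0654) between middle and proximal, Lgr5 (-0.12 to 0.15) and Smoc2 (-0.39 to 0.55) between distal and middle, and Lgr5 (-0.045 to 0.21) between the sexes. Quantile and median-ratio scaling moved the median of all genes by at most 0.02. Depth limits Lgr5, Ascl2 and distal Cd44 most.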
